A study of Mus musculus with 3 samples.

Results

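White blood cells carry a small set of genes that most other cells of the body keep closed, and 10 of these genes were followed here in the chromatin of single nuclei from mouse embryos: *Ptprc*, *Spi1*, *Csf1r*, *Lyz2*, *Cd68*, *Laptm5*, *Runx1*, *Ikzf1*, *Tyrobp* and *Fcer1g*. The genes came from a list of names with no threshold on their values, drawn up with earlier results of these data known, and all 10 were found among the 21593 protein-coding genes counted. Single-nucleus ATAC-seq lets the transposase Tn5 cut and tag open DNA, so the number of unique fragments over a gene is a measure of how accessible it is, not of its RNA. The study compared 3 stages with 1 library each, made from wild-type C57BL/6JRj embryos at E12.5 (day of embryonic development), E13.5 or E15.5. All libraries used nuclei from frozen sections of littermates of embryos mapped by spatial ATAC-seq, sorted by flow cytometry on a DNA stain. No treatment, mutant or transgene was involved, and the sections of a library held many tissues at once.

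The nuclei of an embryo that are not of blood origin outnumber its white blood cells, which at these stages include macrophages seeded into every tissue and cells formed in the fetal liver. Of the listed genes, 3 encode transcription factors of blood formation, which are PU.1 (*Spi1*), *Runx1* and Ikaros (*Ikzf1*). Another 4 act at the cell surface, namely CD45 (*Ptprc*), the receptor for macrophage colony-stimulating factor (*Csf1r*) and the signalling adaptors *Tyrobp* and *Fcer1g*, and the others encode lysozyme (*Lyz2*) and the lysosomal membrane proteins *Cd68* and *Laptm5*. Red blood cell precursors share *Runx1* and *Ikzf1* with white blood cells in their earlier history, which makes the comparison with red-cell precursors part of the question.

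The libraries held 9402554, 87687839 and 53120243 unique fragments in stage order. Of 1879 nuclei in the deposited cell table, 1450 were used, after clusters 2 and 4 of the 12 deposited clusters were left out as shallow. Cluster 8 held 92 of them, with 2 from E12.5, 52 from E13.5 and 38 from E15.5, and the other clusters held 1358. Of the E12.5 nuclei in cluster 8, 1 was a barcode linked to another by shared fragments. Median depth was 79482.5 fragments per nucleus in cluster 8 and 70479.5 in the rest. Libraries shared 0, 0 and 1 barcodes in the 3 pairs. With 2 nuclei, E12.5 gives no value of its own for cluster 8 below.

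Cluster 8 could not be given a single cell type. At the promoters of fixed marker lists, 12 of 12 hepatocyte genes and 10 of 12 endothelial genes were at least 2-fold above the rest there, besides the white blood cell genes, and *Ctla2b*, *Ctla2a*, *Ccl3* and *Alb* led it. The mix was not the same at both stages. Over gene bodies, 9 of 12 hepatocyte genes were at least 2-fold above the rest in E13.5 (median ratio 3.70) and 3 of 12 in E15.5 (1.29), while 1 of 12 endothelial genes was in E13.5 (1.52) and 11 of 12 were in E15.5 (2.87). At promoters, the ratios of the summed levels at these stages were 6.44 and 2.56 for the hepatocyte list and 2.27 and 6.09 for the endothelial list. Cluster 5 was erythroid-like (a red-cell precursor pattern), since 12 of 12 erythroid genes were at least 2-fold above the rest and *Hbb-bs*, *Hbb-bt* and *Hbq1b* led it. In cluster 11, 10 of 12 erythroid genes did so. Clusters 0 and 6 were neuron-like, with 7 of 7 and 4 of 7 neuron genes at least 2-fold above the other nuclei over their bodies. They served as a comparison class outside the blood lineages. Since the cluster numbers may rest on these same fragments, values of cluster 8 against the rest are a description and carry no test. Intervals are 95% and cover counting error only.

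The DNA just upstream of the listed genes is shown first, because cluster 8 stood further from the other nuclei there than over whole gene bodies for most of the genes, and because the red-cell pattern of *Runx1* and *Ikzf1* parted from the others. RefSeq promoters in build GRCm38.p6 (the assembly called mm10 in the data) were on hand for 7 of the 10 genes; *Spi1*, *Csf1r* and *Tyrobp* are named only. Each stretch is written 5′ to 3′ on the strand of the gene, without bases of an annotated exon, and capitals mark a match to 1 of 3 short motifs searched on both strands: GAGGAA, the core bound by PU.1, then TGTGGT, bound by RUNX factors, and AGATAA, bound by GATA factors. Of 32851 RefSeq promoters searched over the 250 bases before the start, 23.3% held the first, 14.05% the second and 9.99% the third, so a match is common and says nothing of binding.
Lyz2, chr10:117282322-117282522, minus strand: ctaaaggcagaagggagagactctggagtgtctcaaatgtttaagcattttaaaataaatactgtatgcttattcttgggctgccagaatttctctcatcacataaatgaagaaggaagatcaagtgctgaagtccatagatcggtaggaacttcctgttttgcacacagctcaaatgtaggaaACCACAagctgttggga
Ptprc, chr1:138175307-138175555, minus strand: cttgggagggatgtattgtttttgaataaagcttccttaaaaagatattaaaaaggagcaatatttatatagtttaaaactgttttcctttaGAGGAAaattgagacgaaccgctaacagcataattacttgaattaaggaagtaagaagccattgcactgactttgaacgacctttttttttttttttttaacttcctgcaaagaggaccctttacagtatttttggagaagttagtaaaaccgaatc
Fcer1g, chr1:171234366-171234599, minus strand: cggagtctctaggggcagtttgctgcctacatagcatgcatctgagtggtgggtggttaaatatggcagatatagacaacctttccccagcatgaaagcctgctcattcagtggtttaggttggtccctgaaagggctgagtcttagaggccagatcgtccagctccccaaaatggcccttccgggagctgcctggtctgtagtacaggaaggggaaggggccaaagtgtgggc
Cd68, chr11:69666171-69666420, minus strand: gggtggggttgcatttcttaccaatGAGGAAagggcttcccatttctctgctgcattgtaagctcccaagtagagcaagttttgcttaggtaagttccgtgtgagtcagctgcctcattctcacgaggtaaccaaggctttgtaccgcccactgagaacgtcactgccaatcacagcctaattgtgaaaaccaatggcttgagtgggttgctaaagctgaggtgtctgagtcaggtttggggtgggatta
Runx1, distal promoter, chr16:92826150-92826324, minus strand: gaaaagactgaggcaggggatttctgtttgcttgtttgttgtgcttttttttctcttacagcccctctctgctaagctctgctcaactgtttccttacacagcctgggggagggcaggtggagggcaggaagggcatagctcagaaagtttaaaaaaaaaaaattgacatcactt
Ikzf1, chr11:11685675-11685924, plus strand: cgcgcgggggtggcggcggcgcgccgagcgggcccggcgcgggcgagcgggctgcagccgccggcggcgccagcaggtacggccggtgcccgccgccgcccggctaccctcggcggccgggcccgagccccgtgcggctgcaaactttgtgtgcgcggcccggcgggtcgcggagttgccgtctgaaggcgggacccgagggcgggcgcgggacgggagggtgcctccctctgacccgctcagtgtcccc

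In the full 250 bases before the RefSeq start (part of which may lie in an exon), values are CPM (counts scaled to the fragments in genes). The *Lyz2* window held 19 fragments from 14 nuclei of cluster 8, or 3.83 CPM, against 0.260 in the rest (ratio 14.8, 7.19 to 30.7). For *Ptprc* the window held 9 fragments in cluster 8 and 4 in the rest (ratio 28.0, 7.80 to 124), but around the *Ptprc* starts E13.5 gave all 17 fragments of cluster 8 and E15.5 gave 0. *Fcer1g* had 5.45 CPM against 0.65 (ratio 8.39, 4.95 to 14) and *Cd68* 8.27 against 2.13 (ratio 3.89, 2.67 to 5.56). With the libraries together, all 4 windows had a higher level in cluster 8 than in the rest, with intervals above 1. The distal *Runx1* window had 4.24 CPM in cluster 8, 8.43 in erythroid-like cluster 5 and 1.95 in all nuclei outside cluster 8. At *Ikzf1* the values were 2.22, 7.47 and 2.34 in the same order, so cluster 8 did not exceed the rest there (ratio 0.949, 0.463 to 1.75). Of the 144 fragments of the rest in this window, 70 came from cluster 5. Within 250 bp of the start that follows it, scaled to all fragments, cluster 8 was 2.57-fold (1.68 to 3.82) above the nuclei outside clusters 5 and 8. A further RefSeq start of *Ikzf1* (window chr11:11689927-11690176) had 1.82 CPM in cluster 8, 1.39 in cluster 5 and 0.471 in the rest, so there cluster 8 did exceed the rest (ratio 3.86, 1.61 to 8.37). Of the 6 stretches, *Ptprc* and *Cd68* held a PU.1 core, *Lyz2* a RUNX match on the opposite strand, and *Fcer1g*, *Runx1* and *Ikzf1* none of the 3 motifs. Windows not printed also held matches. The *Laptm5* window (ratio 9.14, 5.89 to 14.1) and the proximal *Runx1* window (ratio 1.52, 1.11 to 2.03) held a PU.1 core, and the other *Ptprc* window held a GATA match.

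Over gene bodies with the 2 kb upstream, cluster 8 was at least 2-fold above the rest for 6 of the 10 genes (*Spi1*, *Csf1r*, *Lyz2*, *Laptm5*, *Tyrobp* and *Fcer1g*), where 3.14% of 20800 genes were. The median ratio of the 10 was 2.31, against 1.00 over all genes counted. At promoters, taken as 1000 bp upstream to 100 bp downstream of the gene start, 9 of 10 were at least 2-fold above the rest, where 7.32% of 18797 genes were, and the exception was *Ikzf1*. That window misses the protein-coding starts of *Ptprc* and *Csf1r*, which begin 402 and 4974 bp into these genes. It also misses later starts of other genes, such as those of *Ikzf1* 922 and 1442 bp into the gene. The median promoter ratio was 3.73, against 0.963 over all genes. The count over gene bodies was 5 of 10 in E13.5 (4.21% of all genes) and 6 of 10 in E15.5 (4.74%), and at promoters 7 of the 9 (8.04%) and 7 of the 7 (5.74%) that had at least 20 fragments in either group. In sums over nuclei, fewer nuclei of a type and less open DNA per nucleus cannot be told apart.

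**Figure D1:**
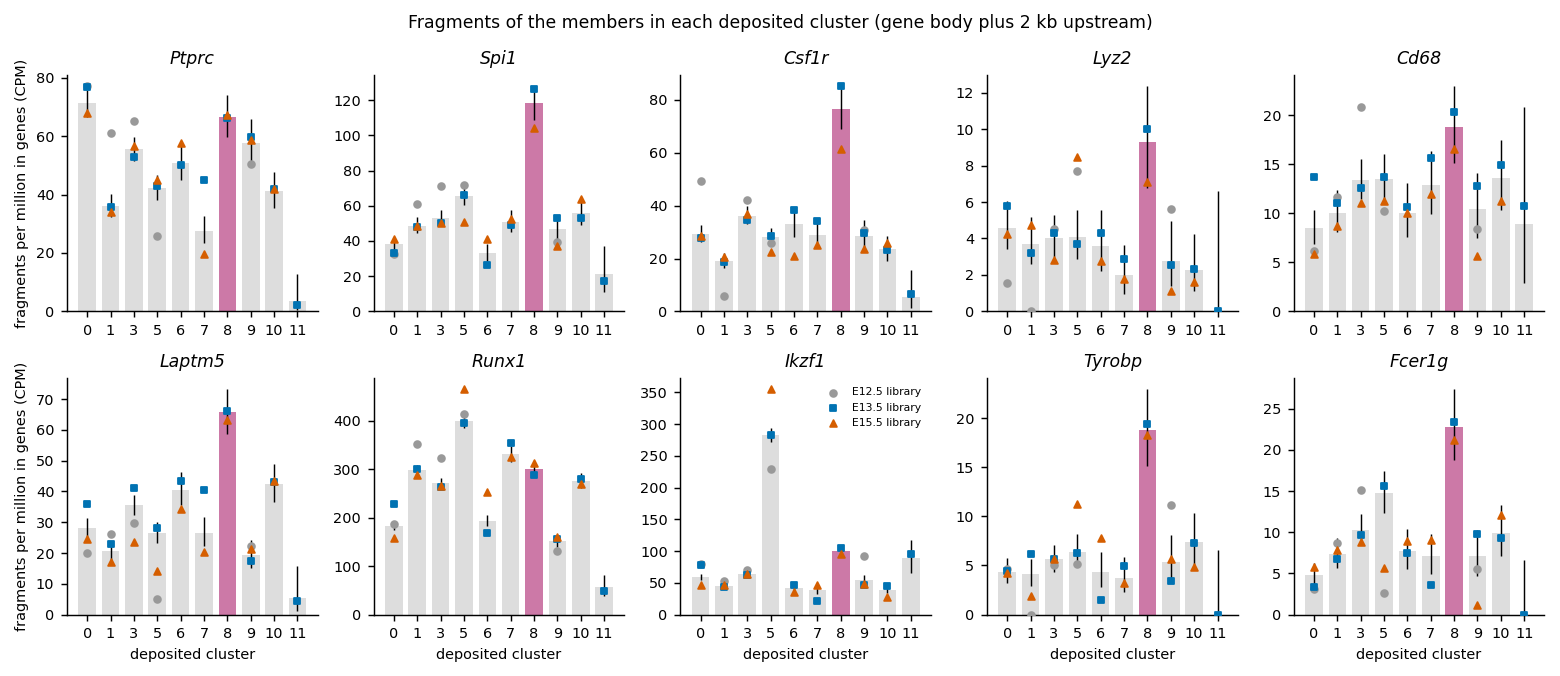
Each panel is 1 gene, with the deposited clusters on the x axis and, on the y axis, fragments over the gene body plus 2 kb upstream scaled to the fragments in genes (CPM). Bars give all 3 libraries together with 95% Poisson intervals, points give single libraries with at least 10 nuclei in the cluster, and cluster 8 is coloured; it is the highest bar for 7 of the 10 genes, while cluster 5 is highest for Runx1 (399 CPM) and Ikzf1 (283 CPM) and cluster 0 for Ptprc (71.5 CPM).

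Among the transcription factors, *Spi1* (chr2:91082390-91115756, plus strand) was the clearest. PU.1 drives myeloid cells and the early steps of lymphoid cells. In cluster 8 the gene had 127 CPM in E13.5 and 104 CPM in E15.5, against 49.6 and 46.8 CPM in the rest, so both libraries lay far above their own background. Together the ratio was 2.40 (2.19 to 2.62), and the next cluster was erythroid-like cluster 5 with 65.7 CPM. At its promoter in E13.5, cluster 7 had 36.9 CPM and cluster 8 had 26.7 CPM. With all libraries together, cluster 8 was the highest there with 31.7 CPM, and cluster 7 came next with 12.4 CPM. Within 250 bp of its start, fragments scaled to all fragments of the nuclei (all-fragment CPM) were 2.28 in cluster 8, 0.634 in cluster 5 and 0.455 in the remaining clusters. A start 14390 bp further on was open in cluster 8 (4.06 all-fragment CPM) and to a lesser extent in cluster 5 (1.83), against 0.421 elsewhere. Between them, 13706 bp from the gene start, cluster 8 had 0.888 and cluster 5 had 1.34 all-fragment CPM, and the interval of their ratio (0.236 to 1.65) included 1.

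*Spi1* also had open DNA inside its body. Bins of 500 bp, 2 per gene, were chosen for the largest excess of cluster 8 over the rest in E13.5, so their E13.5 values are high by choice. They were then measured in E15.5, where 11 of the 20 had an interval above 1 and 9 had one that included 1. The bin centred 0.75 kb after the start was 13-fold above the rest in E13.5 and 7.79-fold (3.92 to 15) in E15.5, and the bin at 2.25 kb was 13.2-fold and 9.64-fold (4.0 to 22.5). A contrast to these was the bin 11.75 kb before the start, the highest near *Spi1* in cluster 8, which was as open everywhere, with 12.9 all-fragment CPM in cluster 8, 11.5 in cluster 5 and 12.1 in the others. Cluster 8 thus differed at *Spi1* in the first few kilobases and at the internal start, and not at that upstream site. How much of the difference over the whole gene these places held was not measured.

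*Runx1* (chr16:92601466-92826149, minus strand), required for the first blood stem cells and also active in skeletal and nerve tissue, differed by less than 2-fold over its whole body. Cluster 8 had 288 CPM in E13.5 and 314 CPM in E15.5, against 282 and 242 CPM in the rest. The ratio was 1.02 (0.953 to 1.09) in E13.5 and 1.29 (1.18 to 1.42) in E15.5, with intervals apart, and 1.12 (1.06 to 1.18) pooled. Cluster 5 had 399 CPM. With a counted span of 226.7 kb, the gene is the longest of the set and its sum mixes its starts with much other DNA. At the distal start, cluster 8 had 3.68 all-fragment CPM, cluster 5 had 6.83 and the remaining clusters 0.776. The proximal start, 128821 bp into the gene, had 7.49, 11.3 and 3.63 in the same order. Cluster 8 was therefore above the remaining clusters at these starts, by 4.74-fold (2.96 to 7.40) and 2.06-fold (1.54 to 2.73), and below cluster 5 at both, since the intervals of the ratio to cluster 5 (0.343 to 0.823 and 0.484 to 0.900) stayed under 1. At starts 130024 and 130654 bp into the gene it was not above the remaining clusters, with ratios of 0.272 (0.00674 to 1.6) and 0.880 (0.344 to 1.89). A bin 25.25 kb into *Runx1* had 2.54 all-fragment CPM in cluster 8 and 0.916 in cluster 5, and was 6.19-fold above the rest in E13.5 and 15.8-fold (4.01 to 65.3) in E15.5, whereas the bin at 128.25 kb was 1.86-fold and 0.821-fold (0.217 to 2.21).

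*Ikzf1* (chr11:11685003-11772926, plus strand), which directs lymphoid and other blood lineages, followed cluster 5 rather than cluster 8. Its body had 283 CPM in cluster 5, 100.9 CPM in cluster 8 and 39.3 CPM in cluster 10. In E13.5, cluster 8 had 105 CPM and the rest 109 CPM (ratio 0.965, 0.861 to 1.08). In E15.5 the values were 95.1 and 52.1 CPM (ratio 1.83, 1.54 to 2.16). Cluster 5 held 166 nuclei in E13.5 and 10 in E15.5, so the rest of each library had a different makeup, and the part of this in the change of the ratio was not tested. At the outermost start of *Ikzf1*, cluster 8 had 0.761 all-fragment CPM, near the 0.776 of the remaining clusters, and cluster 5 had 10.6. At starts 922 and 1442 bp further on, cluster 8 had 3.93 and 3.81 all-fragment CPM, against 1.53 and 0.754 in the remaining clusters and 10.4 and 7.12 in cluster 5. The bin with the largest value in cluster 5, 44.25 kb into the gene, had 17.8 all-fragment CPM there, 0.634 in cluster 8 and 0.266 elsewhere. Cluster 8 thus shared some internal starts of *Ikzf1* with cluster 5 but neither its outermost start nor this site. Of the bins chosen in E13.5, the 1 at 1.25 kb was 2.53-fold (1.15 to 5.03) above the rest in E15.5, and the interval of the 1 at 45.75 kb (1.88-fold, 0.042 to 14.6) included 1.

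**Figure D2:**
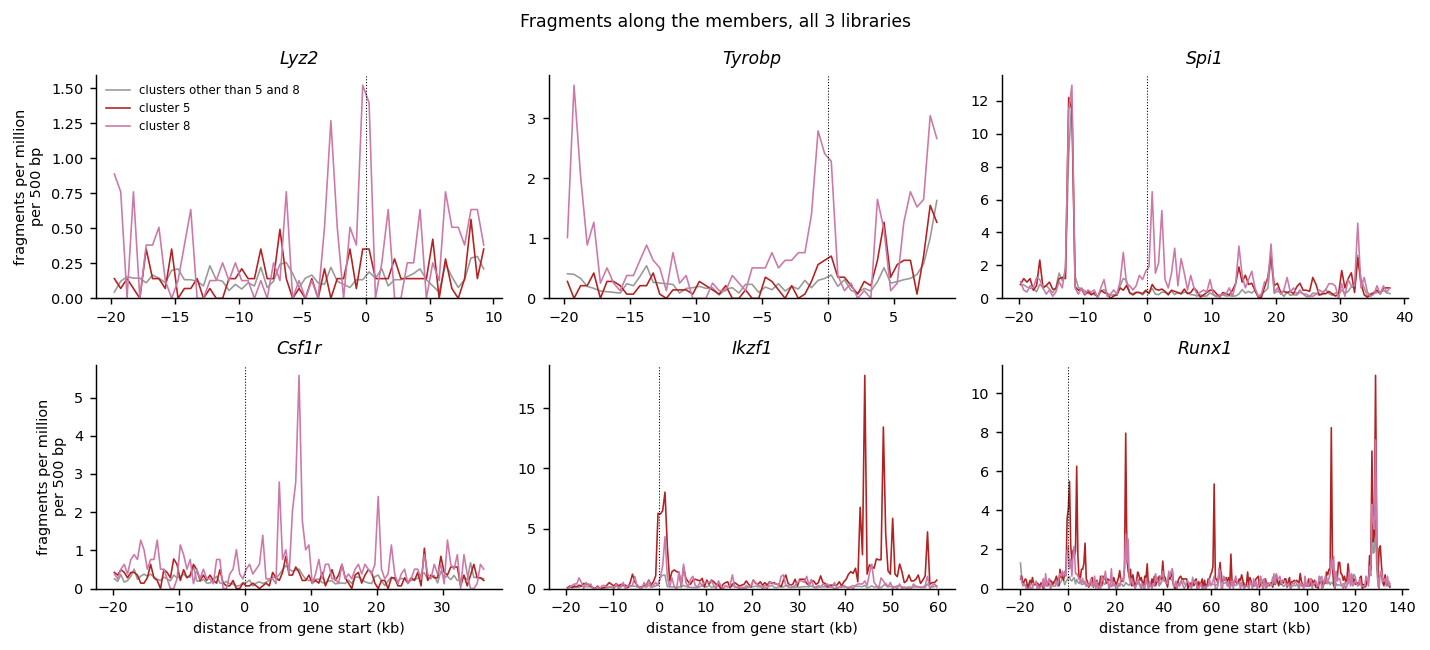
Fragments in 500 bp bins scaled to all fragments (all-fragment CPM, y axis) against distance from the gene start in kb, in the direction of transcription (x axis), for 6 genes and all 3 libraries, with lines for cluster 8, cluster 5 and the remaining clusters; the far ends of Ikzf1 and Runx1 are not drawn. Cluster 8 stands above the other lines near the starts of Lyz2, Tyrobp, Spi1 and Csf1r, and cluster 5 has the tallest Ikzf1 bin (17.8 all-fragment CPM at 44.25 kb).

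At the cell surface, *Csf1r* (chr18:61100598-61132149, plus strand), the receptor on which most tissue macrophages depend, had 85.4 CPM in cluster 8 in E13.5 and 61.4 CPM in E15.5, against 28.9 and 26.4 CPM in the rest. Both libraries showed the difference, with a pooled ratio of 2.68 (2.39 to 2.99). Its merged protein-coding starts, 4974 bp downstream of the gene start, had 1.40 all-fragment CPM in cluster 8, 0.282 in cluster 5 and 0.222 elsewhere. The bin 8.25 kb after the gene start was the highest in cluster 8, with 5.58 all-fragment CPM against 0.423 in cluster 5, and was 8.63-fold above the rest in E13.5 and 15.1-fold (7.94 to 29.0) in E15.5. By contrast, a bin at 5.25 kb was 12.6-fold above the rest in E13.5 and 3.58-fold in E15.5, with an interval (0.642 to 13.6) that included 1. The gene overlaps *Hmgxb3*, and shared fragments counted for both.

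*Tyrobp* (chr7:30413760-30417585, plus strand), the adaptor also known as DAP12 that passes on signals from activating receptors of myeloid and natural killer cells, had the largest ratio of the 10 over gene bodies. It had 19.4 CPM in E13.5 and 18.3 CPM in E15.5 in cluster 8, against 5.24 and 4.34 CPM in the rest. The next cluster, 10, had 7.35 CPM, and the pooled ratio to the rest was 3.70 (2.91 to 4.68). Around its start, cluster 8 had 4.06 all-fragment CPM against 0.705 in cluster 5 and 0.521 elsewhere (ratio to the last 7.79, 4.81 to 12.46). A bin 0.75 kb upstream was 6.67-fold above the rest in E13.5 and 11.7-fold (3.92 to 34.1) in E15.5. The bin just after the start was 6.62-fold and 2.63-fold (0.488 to 9.29), so its interval in E15.5 included 1.

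*Fcer1g* (chr1:171229572-171234365, minus strand), the common gamma chain of Fc receptors, had 23.5 CPM in E13.5 and 21.3 CPM in E15.5, against 9.45 and 7.49 CPM in the rest. Cluster 5 came next with 14.7 CPM. The pooled ratio was 2.62 (2.12 to 3.21). The 500 bp just upstream of its start were 8.82-fold above the rest in E13.5 and 13.1-fold (3.93 to 43.9) in E15.5, whereas a bin 9.25 kb downstream was 6.27-fold above in E13.5 and 0.821-fold (0.0196 to 5.29) in E15.5.

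*Ptprc* (chr1:138062861-138175708, minus strand), whose product CD45 is the phosphatase on the surface of nearly all nucleated blood cells, differed little over its body and strongly at its starts. It had 66.3 CPM in E13.5 and 67.3 CPM in E15.5 in cluster 8, against 48.8 and 49.2 CPM in the rest, while neuron-like cluster 0 was above cluster 8 with 71.5 CPM (66.6 to 76.6, against 59.6 to 74.2 in cluster 8). The intervals of these 2 clusters overlapped. Around the merged starts 402 bp into the gene, cluster 8 had 2.16 all-fragment CPM against 0.211 in cluster 5 and 0.111 in the remaining clusters (ratio 19.4, 8.41 to 47.5). These were 17 fragments from 10 nuclei, all in E13.5. In E15.5 there were 0, and the upper limit of the ratio of E15.5 to E13.5 was 0.450. A bin 16.25 kb upstream of *Ptprc*, chosen for its excess in E13.5 (6.35-fold), was 5.48-fold (1.51 to 16.7) above the rest in E15.5, from 5 fragments in cluster 8.

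The lysosomal group began with *Lyz2* (chr10:117277331-117282321, minus strand), the lysozyme of macrophages and neutrophils. It had 10.0 CPM in E13.5 and 7.09 CPM in E15.5 in cluster 8, against 3.76 and 3.39 CPM in the rest. The interval of the ratio of the stages included 1, and the pooled ratio was 2.55 (1.82 to 3.52). At its promoter the ratio was 8.06 (4.71 to 13.6), the largest of the 10, from 26 fragments in cluster 8. Its bins at 2.75 and 0.25 kb upstream, 19.1-fold and 10.4-fold above the rest in E13.5, were 1.88-fold (0.207 to 8.17) and 4.93-fold (0.842 to 20.5) in E15.5, with intervals that included 1. *Lyz1* is a close copy, and the placing of reads that match both is not stated in the sources used here.

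*Cd68* (chr11:69664213-69666153, minus strand), a glycoprotein of macrophage lysosomes, had 20.3 CPM in E13.5 and 16.5 CPM in E15.5, against 12.9 and 8.76 CPM in the rest. It overlaps *Eif4a1*, a translation factor used by every cell, and its pooled ratio of 1.64 (1.31 to 2.04) was the smallest among the genes that were not transcription factors apart from *Ptprc*. Its promoter ratio was 2.58 (1.90 to 3.46), and the 500 bp just upstream were 3.28-fold above the rest in E13.5 and 4.69-fold (2.42 to 8.64) in E15.5. A bin 5.25 kb upstream was 1.58-fold and 1.14-fold (0.789 to 1.59). The highest bin near *Cd68*, 6.25 kb upstream, was open in all, with 20.9 all-fragment CPM in cluster 8, 27.1 in cluster 5 and 18.9 elsewhere.

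*Laptm5* (chr4:130913125-130936141, plus strand), a lysosomal protein of blood cells that limits receptor signalling in lymphocytes, had 66.3 CPM in E13.5 and 63.2 CPM in E15.5, against 33.3 and 24.0 CPM in the rest. The pooled ratio was 2.23 (1.97 to 2.51). At its main start, cluster 8 had 5.96 all-fragment CPM against 0.775 in cluster 5 and 0.666 elsewhere (ratio 8.96, 5.98 to 13.4). The bin just after the start was 8.46-fold above the rest in E13.5 and 23.0-fold (10.8 to 51.3) in E15.5, and a bin 2.25 kb upstream 4.06-fold and 7.17-fold (2.18 to 21.1).

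**Figure D3:**
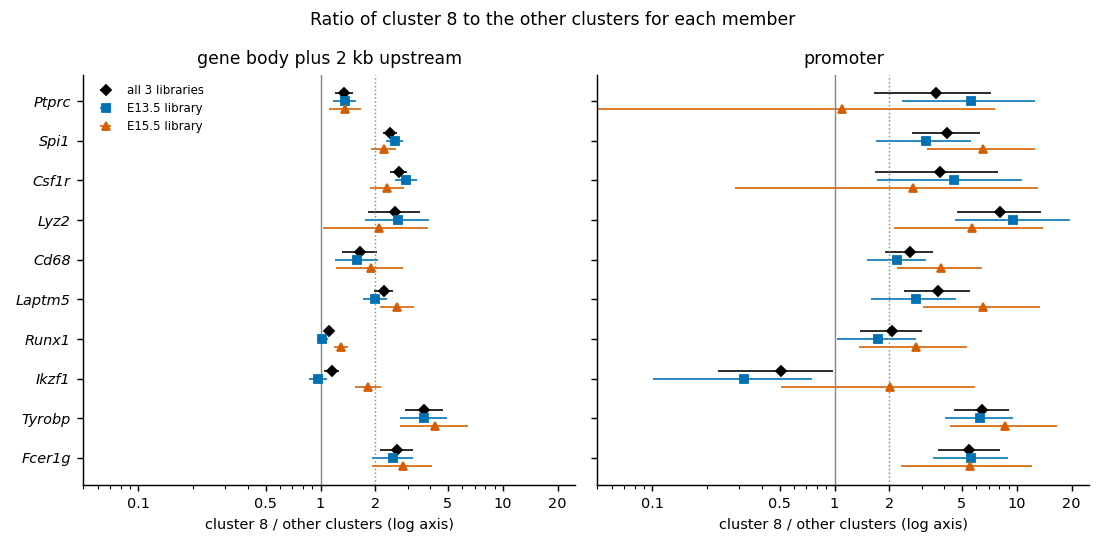
Ratio of cluster 8 to the other clusters (x axis, log scale) for each of the 10 genes (y axis), over the gene body plus 2 kb upstream (left) and at the promoter (right), for all 3 libraries together, E13.5 and E15.5, with 95% counting intervals drawn from 0.05 up to 25. Solid and dotted lines mark 1 and 2; with all libraries together, promoter ratios reach 8.06 for Lyz2 and Ikzf1 is the only gene below 1 (0.506), while by library Lyz2 reaches 9.50 in E13.5 and Ikzf1 lies at 0.317 in E13.5 and 2.02 in E15.5.

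Between stages, the sum of the 10 genes in cluster 8 was 811 CPM in E13.5 and 768 CPM in E15.5 (ratio 0.946, 0.885 to 1.01), and the median ratio of E15.5 to E13.5 over the genes was 0.905. The intervals of *Spi1* (ratio 0.821, 0.684 to 0.982) and *Csf1r* (0.720, 0.568 to 0.905) lay below 1, and those of the other 8 genes included 1. A high sum was not particular to cluster 8. In erythroid-like cluster 5 it was 883 CPM (863 to 903) in E13.5 and 990 CPM (889 to 1100) in E15.5, with *Runx1* and *Ikzf1* as its largest parts. Over the same stages the summed level in cluster 8 went from 567 to 259 CPM for the hepatocyte list and from 750.1 to 1314 CPM for the endothelial list, and the part of this shift in the stage values of the 10 genes was not tested. With 1 library per stage, stage and library cannot be told apart. Over all used nuclei, *Ikzf1* had 109 CPM in E13.5 and 55.2 CPM in E15.5, and without cluster 5 it had 59.6 and 50.5 CPM.

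Across the 24 sums of cluster and library with enough nuclei, which share libraries and depth, the genes most like the members were *Scimp* (r = 0.902), *Plcg2* (0.900), *Arhgap25* (0.879), *Muc6* (0.877) and *Ncf1* (0.870). Likeness is Pearson's r of log2 CPM with the mean of the members. Within the set, *Spi1* followed the mean of the other members most closely (r = 0.753) and *Ikzf1* hardly at all (r = 0.094). These are descriptions, with no test.

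Other white blood cell genes gave graded values, to be read against the 3.14% of all genes that were at least 2-fold higher over their bodies and the 7.32% at promoters. Of 19 pan-leukocyte genes, 9 were at least 2-fold above the rest over their bodies, among them *Vav1* (2.53-fold), *Was* (2.48-fold), *Cd53* (2.45-fold) and *Lcp2* (2.44-fold), while *Selplg* was at 1.57-fold and *Cd37* at 1.35-fold. Of 19 genes of myeloid signalling, 7 were, led by *Ncf4* (2.71-fold), *Fcgr3* (2.43-fold), *Csf2rb* (2.43-fold) and *Csf3r* (2.36-fold), with *Btk* at 1.14-fold and *Pirb* at 0.72-fold. Only 2 of 20 macrophage genes were, *Fcrls* (3.35-fold) and *Trem2* (2.04-fold), although 11 of the 19 with enough promoter fragments passed at the promoter. In the granulocyte list 5 of 12 passed, including *Cebpe* (2.94-fold), *Ms4a3* (2.87-fold), *S100a8* (2.53-fold) and *Ctsg* (2.44-fold). The granulocyte values differed by library, with 5 of 12 at least 2-fold higher and a median ratio of 1.78 in E13.5, and 3 higher, 2 at least 2-fold lower and a median of 0.974 in E15.5. The lymphocyte list had 1 of 14, the mast cell and basophil list 1 of 8, the megakaryocyte list 2 of 10 with *Pf4* at 5.22-fold, and the blood progenitor list 1 of 11, *Hhex* at 4.04-fold, a gene that liver and endothelium also use. None of 12 erythroid, 7 neuron, 8 mesenchyme or 8 housekeeping genes passed. *Alb* (6.07-fold), *Afp* (5.77-fold), *Kdr* (2.74-fold) and *Esam* (2.55-fold) show the liver and endothelial share of cluster 8.

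The genes were also counted within single nuclei. Each nucleus was scored for how many of the 10 promoters carried at least 1 fragment, and those with at least 4 are called carriers. In cluster 8, 14 of 92 nuclei were carriers (15.2%, 8.58 to 24.2), with 8 of 52 in E13.5, 6 of 38 in E15.5 and 0 of 2 in E12.5. Outside it, 8 of 1358 were (0.589%, 0.255 to 1.16), and 7 of these lay in the E13.5 nuclei of erythroid-like cluster 5 and 1 in neuron-like cluster 6. Clusters 0 and 6 together had 1 of 401 (0.249%). Cluster 3, with 208 nuclei, had 0, which allows a share of up to 1.44% (3 counts of the total). At least 2 promoters were carried by 50.0% of cluster 8 and 12.3% of the rest, and at least 3 by 28.3% and 2.58%.

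**Figure D4:**
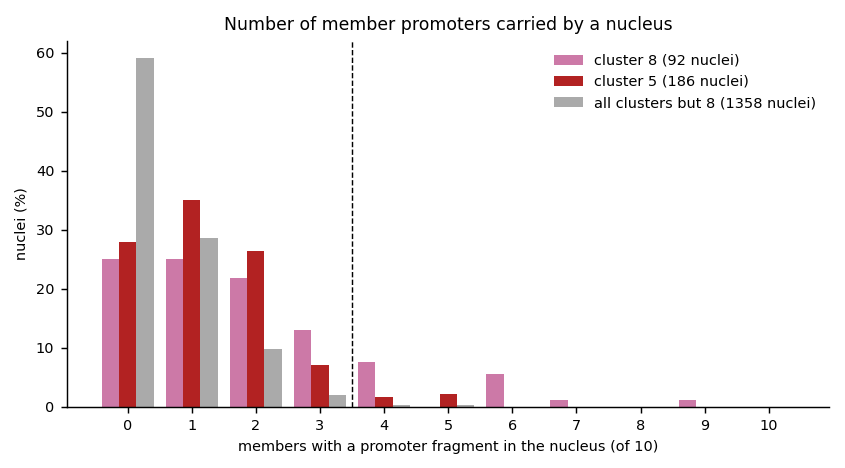
Share of nuclei in percent (y axis) by the number of the 10 promoters that carried a fragment in the nucleus (x axis), for cluster 8, cluster 5 and all used nuclei outside cluster 8; the dashed line marks the cut of at least 4. In cluster 8, 23 of 92 nuclei carried none, against 802 of 1358 outside it, and the highest nucleus carried 9.

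Depth bears on such counts, so every nucleus was also thinned to 20000 fragments, which left out 131 nuclei of the rest and 0 of cluster 8. The share with at least 2 promoters was then 18.5% in cluster 8 and 1.79% in the rest, and the mean number per nucleus 0.750 and 0.186, against 1.88 and 0.567 before thinning. At this depth 1 nucleus of cluster 8 and 0 of the rest reached 4. The carriers outside cluster 8 were deep, with a median of 157467 fragments, against 90334.5 in the carriers of cluster 8 and 78469 in its other nuclei. Without *Runx1* and *Ikzf1*, a choice made after seeing the data, 9 nuclei of cluster 8 (9.78%) and 4 of the rest (0.295%) carried at least 4 of the 8 genes left.

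Gene by gene, the share of nuclei with a promoter fragment was above that of neuron-like clusters 0 and 6 in cluster 8 for each of the 10, by very different amounts. *Fcer1g* was found in 26.1% of cluster 8 against 3.24%, *Tyrobp* in 23.9% against 3.24%, *Spi1* in 21.7% against 5.49% and *Lyz2* in 20.7% against 2.0%. *Cd68* reached 31.5%, but 8.48% of clusters 0 and 6 had it too. *Ptprc* and *Csf1r*, whose protein-coding starts lie outside the promoter window, each reached 7.61%, against 2.74% and 2.24%. *Ikzf1*, at 6.52% against 4.49%, was near the level of clusters 0 and 6 in this window, and 42.5% of cluster 5 had it. The window covers the outermost start of *Ikzf1* but not those 922 and 1442 bp further on. Median depth was 64329 fragments in clusters 0 and 6 and 59054.5 in cluster 5.

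The 14 carriers made up 15.2% of the nuclei of cluster 8 and 18.2% of its fragments, and by their choice they held much of the member signal, 48.2% of 301 promoter fragments. *Cd68* was carried by 12 of the 14, *Fcer1g* by 11, *Tyrobp* by 10, *Spi1* and *Runx1* by 8 each, *Lyz2* and *Laptm5* by 6 each, *Ikzf1* by 5 and *Ptprc* and *Csf1r* by 4 each. The promoter window of *Ptprc* and *Csf1r* misses their protein-coding starts. *Ikzf1* was carried by 1 of the 78 other nuclei of cluster 8. The deepest in members was an E13.5 nucleus with 9 of 10 promoters and 20 promoter fragments among 145441 in all, and the next was an E15.5 nucleus with 7 promoters among 59807 fragments, so the shallower of the 2 still carried most of the set.

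Markers of other cell types were counted in the same way. Of the 92 nuclei, 26 carried at least 3 members, 17 at least 4 of 12 hepatocyte promoters and 22 at least 4 of 12 endothelial promoters. Overlaps were 1 nucleus for members with hepatocyte genes, 2 for members with endothelial genes and 0 for hepatocyte with endothelial genes, and 30 nuclei met none of the 3 cuts. None of the carriers had at least 4 hepatocyte promoters and 1 had at least 4 endothelial ones. Single promoters of these lists were not absent from the carriers, which had a mean of 1.21 hepatocyte and 1.71 endothelial promoters, against 2.05 and 2.71 in the other nuclei of the cluster and 0.451 and 0.764 outside it. Carriers had a median of 7 pan-leukocyte, 5 macrophage and 2 granulocyte promoters of 19, 20 and 12, against 2, 2 and 1 in the other nuclei of the cluster. Housekeeping promoters had a mean of 5.36 of 8 in the carriers of cluster 8 and 4.47 in its other nuclei. The carriers in cluster 5 had a median of 5 of 12 erythroid promoters, against 0.5 in those of cluster 8. For the pan-leukocyte, macrophage and granulocyte lists, the carriers in cluster 5 had medians of 2, 3 and 2. All nuclei outside cluster 8 had medians of 1, 1 and 1. The carriers in cluster 5 were also deeper, with a median of 156588 fragments against 70479.5, and the part of depth in these counts was not tested.

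**Figure D5:**
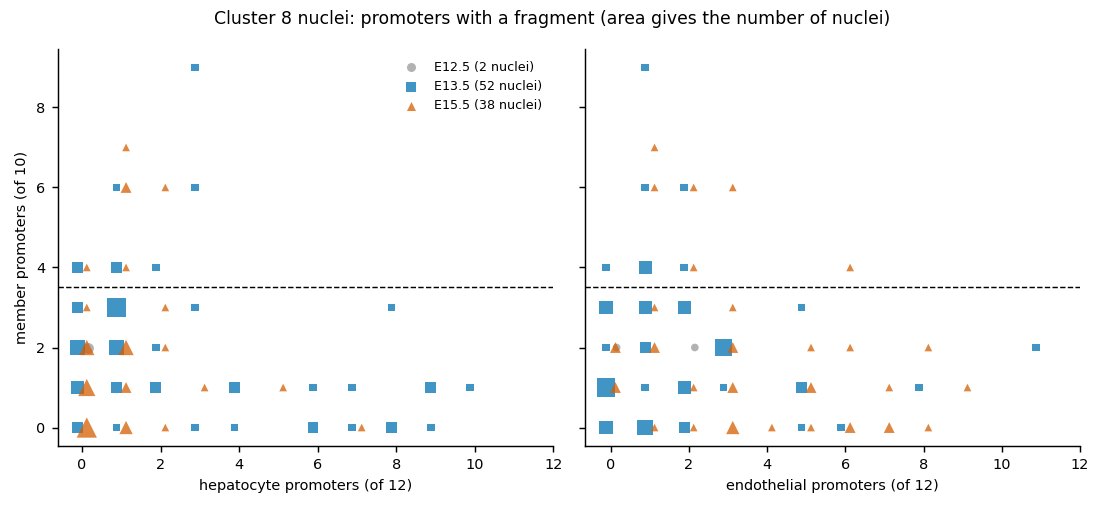
Nuclei of cluster 8 by the number of member promoters with a fragment (y axis, of 10) against the number of hepatocyte (left) and endothelial (right) promoters with a fragment (x axis, of 12), coloured by stage, with point area for the number of nuclei and stages set side by side so that they do not hide each other. The dashed line marks the cut of at least 4 members; of the 14 nuclei above it, none has 4 or more hepatocyte promoters and 1 has 4 or more endothelial promoters.

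The last comparison tested the genes that did not choose the carriers. Fragments of carriers and of the other nuclei of cluster 8 were summed in E13.5 and E15.5 and compared with edgeR's quasi-likelihood test, with the library as a block and Benjamini-Hochberg adjustment over 15704 genes. Of 15694 non-member genes, 37 were higher in carriers (0.236%) and 68 lower (0.433%), all in the same direction in both libraries. Such a fit rarely calls a gene whose libraries disagree, so the shared direction is no added check. Without the block edgeR called 0 genes, and DESeq2 called 0, with 1505 and 599 genes at an unadjusted p under 0.05, against 1565 in the blocked edgeR fit. The calls therefore rest on that fit. Its p-values measure how far the difference between carriers and other nuclei varied between the 2 libraries, with information on spread shared across genes. They do not measure a spread between embryos.

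White blood cell genes of the fixed lists called higher were *Fcgr3*, an Fc receptor that works with the *Fcer1g* chain (log2 fold change 1.96, SE 0.47, adjusted p = 0.0184 in edgeR), *Csf3r*, the receptor for granulocyte colony-stimulating factor (1.72, SE 0.47, adjusted p = 0.0434), *Adgre1*, which encodes the macrophage marker F4/80 (1.67, SE 0.45, adjusted p = 0.0400), and *Vav1*, a signalling protein of blood cells (1.603, SE 0.38, adjusted p = 0.0184). *Fcgr3* lies 165 kb from *Fcer1g*. In the lists, 1 of 19 pan-leukocyte genes, 2 of 18 myeloid signalling genes and 1 of 16 macrophage genes were called higher and none lower, with median log2 fold changes of 0.63, 0.73 and 0.83, against -0.01 over all non-member genes. Above 0 were 17, 15 and 14 of them, against 7719 of all 15694 non-member genes. None of 6 granulocyte or 9 lymphocyte genes was called, with 6 and 6 of them above 0 (medians 0.46 and 0.42). No gene of the other blood lists was called either. The blood progenitor list had 3 of 11 genes above 0 (median -0.33) and the megakaryocyte list 2 of 6 (median -0.43), so these went the other way. The mast cell and basophil list had 2 of 4 above 0 (median 0.20) and the erythroid list 6 of 10 (median 0.07). Outside the lists, and picked out after their values were seen, *Itgax* (log2 fold change 2.09), *Slamf1* (2.32), *H2-DMb2* (2.40), *Myo1f* (1.83), *Ptafr* (1.72) and *Cd6* (1.62) were called higher as well, whereas the lymphoid genes *Skap1* (-1.60) and *Gimap5* were called lower.

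Most liver and endothelial genes of the lists lay on the other side, though few were called. *Afp*, the alpha-fetoprotein of fetal liver, was lower in carriers (log2 fold change -2.66, SE 0.68, adjusted p = 0.0267 in edgeR), and so were *Egfl7* (-2.02, SE 0.49, adjusted p = 0.0184) and *Kdr* (-1.70, SE 0.45, adjusted p = 0.0400), both genes of endothelium. The median was -1.15 over 9 hepatocyte genes, with 1 above 0 and 1 called lower. Over 12 endothelial genes it was -1.39, with 1 above 0 and 2 called lower. Of all non-member genes, 0.433% were called lower. Of the 10 non-members with the smallest p, 9 were lower in carriers. *Deptor* was lowest in p (log2 fold change -2.58, SE 0.44, adjusted p = 7.9e-05), followed by *Me3* (-2.52), *Tead4* (-2.61), *Ddah1* (-2.13) and *Gata4* (-2.67), a transcription factor of heart, liver and endoderm. *Gria1* (-2.33), *Tjp1* (-1.78) and *Adcy5* (-1.78) were in the same group. *Chst13* had 148 fragments in the other nuclei and 0 in the carriers, at least 11.2-fold lower when 3 fragments over all carriers are taken as the floor. *Kcnk13*, a potassium channel, was the 1 that was higher (1.81, SE 0.39, adjusted p = 0.00670). For *Adcy5*, 473 of 1069 fragments of cluster 8 came from 1 nucleus with 3 members, and when the cut was at least 3 members its log2 fold change was 1.39. Sizes of other genes also moved with the cut. *Deptor* was at -1.33 with at least 3 members (adjusted p = 0.116 in edgeR). Over all transcript starts *Gria1* was at -0.65 (adjusted p = 0.501), *Egfl7* at -0.85 (adjusted p = 0.299) and *Kdr* at -0.94 (adjusted p = 0.207). Without *Runx1* and *Ikzf1* in the count, *Csf3r* was at 0.93 (adjusted p = 0.577), and *Vav1* (adjusted p = 0.0828), *Adgre1* (0.103), *Afp* (0.114), *Kdr* (0.0522) and *Tjp1* also lost their call. With no filter on low counts *Adgre1* (adjusted p = 0.0558) and *Csf3r* (0.0623) lost theirs.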

How the data were processed

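Accessibility was measured by single-nucleus ATAC-seq in 3 libraries, 1 per stage. Per the file headers, the authors made the fragment files with Cell Ranger ATAC 2.0.0 against mm10, which shifts fragment ends for Tn5 and keeps duplicates once. The submitters' processing notes also name Seurat 4.1.0 and Signac 1.6.0. The deposited count beside each unique fragment is its number of read pairs and was used only for totals. The deposited cell table gave library, cluster and whole-number counts per nucleus, and 19 of its columns were not used. The study integrated the nuclei with its spatial ATAC profiles (Seurat anchors and Harmony) and describes clusters from that step, but does not say whether the deposited numbers are those. Recomputed fragment totals of a nucleus were within 0.604% of the deposited ones.

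Unique fragments that overlapped a gene body plus 2 kb upstream (GENCODE vM21) were summed, without strand, for 21593 protein-coding genes. Of 21938, 91 Pcdh and Ugt genes, 228 spanning over 500 kb and 26 with a repeated symbol were left out, and 4 listed marker genes were not measured. CPM is scaled to fragments in genes, or in promoters for promoter values, and all-fragment CPM, used at starts and in bins, to all fragments. Clusters 2 and 4 were left out. Doublets were not removed. Ratios of counts carry exact 95% intervals, sums exact Poisson and shares Clopper-Pearson intervals, which cover counting error only. Genes with under 20 fragments in both groups were left out of fold counts. The members and lists were chosen with earlier results of these data known.

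Carriers and other nuclei were compared with edgeR 4.0.16 in R 4.3.3, with DESeq2 1.42.0 as an alternative. On simulated data for this comparison, 62.5% of 200 genes changed 4-fold among 15724 were recovered, 4.58% of calls were false and 0 were made with no change. The simulation gave all genes a common spread and the libraries no difference beyond depth, and it changed only well-covered genes. It therefore cannot give the rate of false calls in the real data. Genes named were the 10 members, at most the 4 largest and 2 smallest ratios of each other list, the 10 non-members with the smallest p in edgeR, called list genes and the 5 genes most like the members. *Hbb-bs*, *Ctla2b* and the other leading genes of clusters were named after their values were seen. Alternatives covered the counted region, the total, the weighting of nuclei, thinning, the cut for carriers, the normalization, filter, block and tool, and leaving out each library.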

Additional observations from a re-analysis of the deposited data

Results flagged for a closer look

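The ratio of cluster 8 to the rest over *Ikzf1* was 0.965 in E13.5, with an interval that includes 1 (0.861 to 1.08), and 1.83 in E15.5, with an interval above it (1.54 to 2.16). For *Runx1* it was 1.02 (0.953 to 1.09) and 1.29 (1.18 to 1.42). The intervals do not touch for either gene. With cluster 5 left out, all used nuclei (cluster 8 among them) had 59.6 CPM of *Ikzf1* in E13.5 and 50.5 CPM in E15.5. Cluster 8 had 105 and 95.1 CPM. The difference between stages was not tested, as each stage has 1 library.

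The shallow clusters 2 and 4, which no comparison used, also held fragments of the 10 genes. Cluster 2 (223 nuclei, median depth 7470 fragments) had 831 of them, a sum of 603 CPM (562 to 645), and cluster 4 (206 nuclei, median depth 703) had 52, a sum of 501 CPM (374 to 656), against 797 CPM in cluster 8 and 541 CPM in the rest. In cluster 2, 1 nucleus carried promoter fragments of at least 2 members.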

How the results depend on the processing

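The median ratio of cluster 8 to the rest over the 10 genes was 2.31. It was 3.73 at promoters, 4.29 within 1000 bp on either side of the gene start, 2.47 scaled to all fragments, 2.61 with nuclei weighted equally, 2.49 without nuclei over 3 times the library median, 2.16 without the top nucleus of each gene, and 2.14 to 2.32 with each library left out. For *Ikzf1* the ratio turned below 1 at the promoter (0.506), within 1000 bp of the start (0.739) and without E15.5 (0.979), and was between 0.979 and 1.62 with each library left out. Its highest ratio under the other alternatives was 1.94. The count of genes at least 2-fold higher stayed between 6 and 9 under all alternatives. The median of E15.5 over E13.5 went from 0.905 to 0.742 without nuclei over 3 times the library median, an alternative chosen after seeing the data for this result, as were the other alternatives for stage. The share of carriers in cluster 8 (15.2%) was 28.3% for at least 3 members, 7.61% for at least 5, 32.6% within 1000 bp of the start, 34.8% over all transcript starts, 1.09% after thinning and 14.8% to 15.6% with each library left out.

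Of genes called between carriers and other nuclei of cluster 8 (105), the count was 0 with DESeq2, 0 without the library block, 6 for at least 3 members (3 shared with the 105), 14 for at least 5 (6 shared), 10 with promoter counts (5 shared), 78 with no filter on low counts and 113 with RLE size factors. Chosen after seeing the data, carriers over all transcript starts gave 324 (53 shared) and carriers without *Runx1* and *Ikzf1* gave 119 (51 shared). Adjusted p of the 7 called genes of other lists ran from 0.561 to 0.904 with DESeq2. Of the 17 non-member genes named from this comparison by rule, 17 lost their call with DESeq2 and 17 without the block, 15 at 3 members, 14 at 5, 6 without *Runx1* and *Ikzf1*, 4 over all transcript starts and 2 with no filter on low counts, besides *Adcy5*, which turned at 3 members and over all transcript starts. With promoter counts only *Deptor* and *Vav1* of these genes could be tested. *Deptor* lost its call (log2 fold change -1.44, adjusted p = 0.852 in edgeR) and *Vav1* kept it (2.69, adjusted p = 0.0490). *Fcgr3* was called at 3 and at 5 members, over all transcript starts and without *Runx1* and *Ikzf1*. *Adcy5* turned to higher in carriers with at least 3 members (log2 fold change 1.39) and over all transcript starts (1.06). The comparison is paired by library, with 2 pairs of sums, and without that block no gene was called, with 1505 at an unadjusted p under 0.05. Leaving out a library in this comparison was not run, since the library left has 1 sum a group. The causes of these changes were not tested. A given member's promoter had no fragment in most nuclei of cluster 8, and the parts of depth and of the mix of nuclei in this were not tested.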
